A study of Mus musculus with 7 samples.

Results

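A set of 10 genes of the transforming growth factor beta (TGFβ) and bone morphogenetic protein (BMP) pathways were followed in single cells of mouse thyroid tissue and of mouse thyroid follicular cell organoids (TFCOs). They were the ligands Tgfb1 and Tgfb2, the receptors Tgfbr1, Tgfbr2 and Tgfbr3, and the response genes Tgfbi, Id1, Id2, Id3 and Smad7. These 10 genes were picked by name from a table of 30879 genes, and all 10 were present. Wild-type thyroid of C57BL/6 mice gave 2 primary tissue samples, 3 late passage TFCO samples and 2 early passage TFCO samples, all sorted as live single cells into plates and sequenced by SORT-seq, which counts unique molecular identifiers (UMIs) at the 3′ end of transcripts. All TFCOs were grown from such tissue in a medium with R-spondin 3 conditioned medium, epidermal growth factor, fibroblast growth factor 10, forskolin, which raises cyclic AMP, and A83-01, which blocks the type I TGFβ receptor kinase. Tissue cells were dissociated directly and saw neither culture nor A83-01, so culture, passage and the inhibitor cannot be told apart in any comparison of TFCO with tissue. The study names 2 biological replicates per group although 3 late samples are labelled, and the labels do not say which samples came from separate animals or which tissue gave which TFCO. P-values therefore measure the spread between these samples, which may be technical.

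TGFβ ligands bind the type II receptor Tgfbr2, which activates the type I receptor Tgfbr1, and the co-receptor Tgfbr3 (betaglycan) presents ligand to them. The activated receptors phosphorylate Smad2 and Smad3, whereas BMP receptors phosphorylate Smad1, Smad5 and Smad9, and both sets enter the nucleus with Smad4. Tgfbi encodes a secreted matrix protein that is named for its induction by TGFβ, Id1, Id2 and Id3 encode inhibitors of basic helix-loop-helix transcription factors and are classical BMP targets, and Smad7 is an inhibitory SMAD induced by the pathway that it restrains. In the thyroid, TGFβ is known to restrain growth and differentiation of follicular cells.

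Cells of at least 1000 UMIs were analysed, 578 from tissue and 1457 from TFCOs. Clusters named from marker genes gave 93 thyroid follicular cell-like (TFC-like) cells in tissue, 48 and 45 in the 2 samples, and 1366 in TFCOs. All 15 follicular cell markers were detected in the TFC-like cells of each sample, and their summed level was 1635 and 1236 UMIs per 10000 in tissue and 111 to 206 in TFCOs. The TFC-like cells held 127784 and 549895 UMIs in the tissue samples and 1955052 to 4523094 in the TFCO samples, and the median cell had 2331 and 2229 UMIs in tissue against 5304 to 13025 in TFCOs. In tissue sample 2, 2 very deep cells held most of these UMIs. Late sample 2 and early sample 1 stood apart from the other TFCO samples, with the deepest cells (medians of 12840 and 13025 UMIs) and the most cycling cells (30.6% and 37.9% against 5.90% to 14.3%). Cycling was called from proliferation markers with at least 1 UMI and without thinning, so its share can rise with depth. The TFC-like cells of tissue also carried RNA of other cell types. The 13 endothelial markers summed to 14.7 and 18.1 UMIs per 10000 there, or 9.36% and 10.8% of their level in endothelial-like cells, and to 6.99 to 10.5 in TFCOs, where Cldn5 was at 0 in all 5 samples and Ly6c1 in 3 of them; Cldn5 was also at 0 in the TFC-like cells of tissue sample 1. The 15 immune markers summed to 17.0 and 7.68 in tissue TFC-like cells and 0.196 to 0.752 in TFCOs, and the 10 stromal markers to 2.91 and 2.11 against 0.242 to 0.757. Cells of different plates share the same 384 well barcodes, and the level of a member in cells of the same barcode on different plates correlated by 0.0299 or less in 9 members and by 0.0536 in Tgfbr1.

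Levels are means over cells of UMIs per 10000 UMIs of the cell. Differences are on the scale of log2(level + 1) and were tested with limma over all 12118 genes with a mean level of at least 0.1, with Benjamini-Hochberg adjustment and a threshold of 0.05. On this scale a change of a low gene is understated. Of the members, 9 passed this floor, and Tgfb2 did not. Of all genes tested, 5.82% passed the threshold between TFCO and tissue TFC-like cells, 3.28% as higher and 2.54% as lower in TFCOs (397 and 308 genes, or 187 and 559 with every sample centred on its median gene). The median difference over all genes tested was 0.11, and the differences of members are given without subtracting it. Among the 9 members tested, 1 passed, Tgfbi, which was higher in TFCOs.

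Tgfbi separated TFCOs from tissue. The Tgfbi level in TFC-like cells was 0.327 and 0.411 UMIs per 10000 in the tissue samples, 7.24, 15.2 and 8.68 in the late samples, and 12.4 and 4.06 in the early samples. Every TFCO sample exceeded both tissue samples with no overlap, as for 35.8% of all genes tested. Late sample 2 and early sample 1 were the highest. The mean over TFCO samples was 9.51 ± 4.36 (SD, n = 5), 25.8 times the tissue mean of 0.369 ± 0.059 (SD, n = 2), and the log2 difference was 2.79 ± 0.63 (SE, adjusted p = 0.0268, limma). The tissue value rested on 14 UMIs, 6 and 8 in the 2 samples, against 15084 in TFCOs. Summed over cells instead of averaged, the tissue samples had 0.470 (exact 95% Poisson interval 0.172 to 1.02) and 0.145 (0.0628 to 0.287) UMIs per 10000, intervals that cover counting error only.

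Most TFCO cells held Tgfbi RNA. At least 1 Tgfbi UMI was found in 62.1% to 99.7% of TFC-like cells of the TFCO samples and in 4.17% and 11.1% of those in tissue (exact 95% Clopper-Pearson intervals 0.509% to 14.3% and 3.71% to 24.1%). After each cell was thinned to 1000 UMIs, which removes the difference in depth, these shares were 29.7% to 67.6% in TFCOs and 2.08% and 0% in tissue. Endothelial-like cells of tissue, which had the lowest Tgfbi level of all classes, had shares of 3.23% and 2.70%, or 0.806% and 0.901% when thinned, with median depths of 3973 and 4121 UMIs. The unthinned share in tissue TFC-like cells exceeded that of endothelial-like cells in sample 2, where the endothelial-like value lay under the interval. In sample 1 it did not do so beyond counting error. The share of sample 2 included its 2 very deep cells and was not computed without them, so depth may account for this excess. Thinned, the share in tissue TFC-like cells rested on a single cell of sample 1. In TFCOs the cells still varied widely: the median cell had 1.99 Tgfbi UMIs per 10000 in early sample 2 and 11.8 in late sample 2, and 14.7% and 63.0% of the cells of these samples were above every tissue TFC-like cell.

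The Tgfbi difference was 2.34 with late sample 2 and early sample 1 set apart by a term of their own (adjusted p = 8.47e-05, limma), and 2.44 to 3.14 when single samples were left out (adjusted p = 0.00474 to 0.0369). It was 2.99 for late TFCOs alone (adjusted p = 0.0193) and 2.59 for early TFCOs alone (adjusted p = 0.0549). When only tissue cells with no endothelial UMI were kept, which left 6 and 3 cells, the difference was 3.24 and did not pass (adjusted p = 0.323), and limma called 0 of all genes there, with 1558 at an unadjusted p under 0.05. Tgfbi was at 0.0638 and 0.0369 UMIs per 10000 in endothelial-like cells, below its level in either tissue TFC-like sample.

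**Figure D1:**
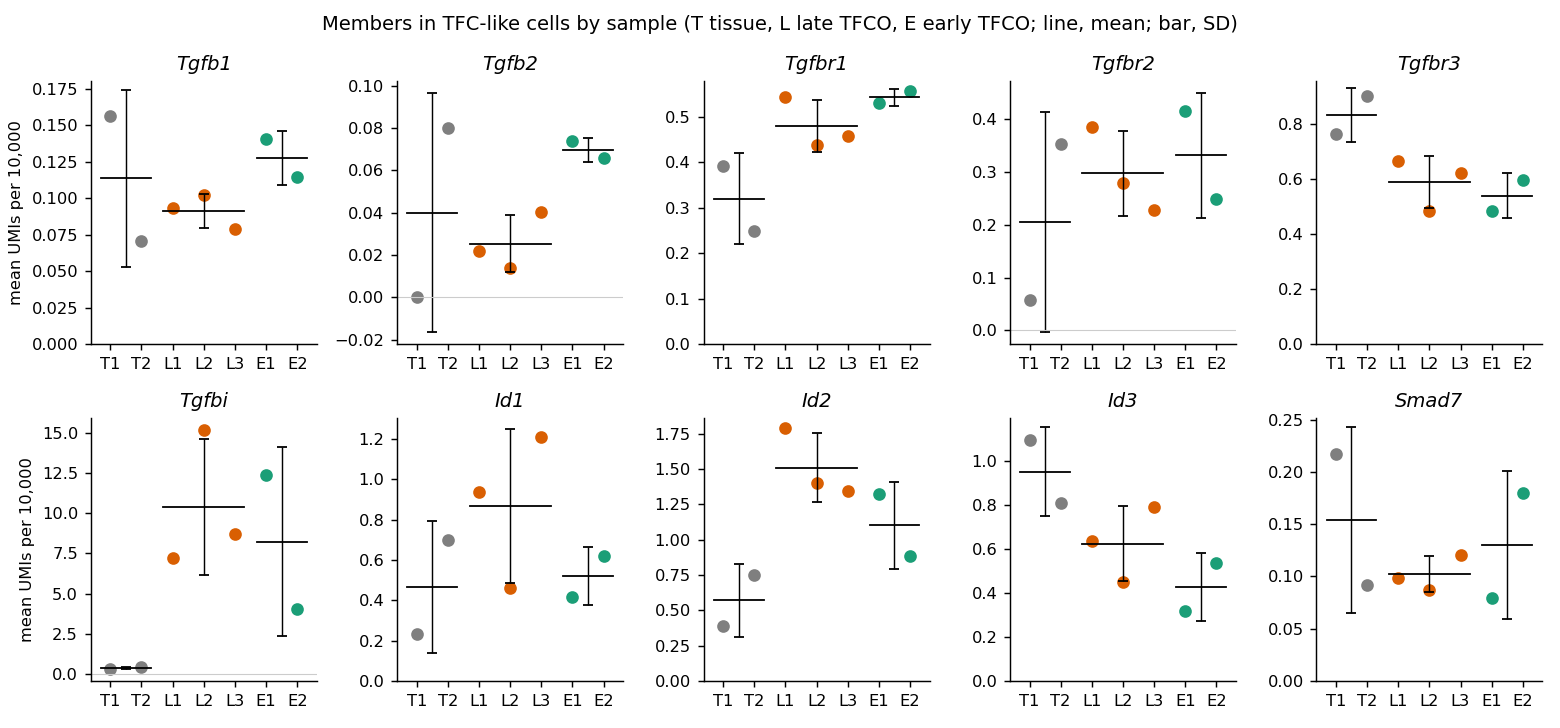
Mean level of each member (y axis, UMIs per 10,000, linear and on its own scale per gene) in TFC-like cells of each sample (x axis; T tissue, L late TFCO, E early TFCO), with the group mean as a line and the SD as a bar. Tgfbi is at 0.327 and 0.411 in tissue and between 4.06 and 15.2 in the 5 TFCO samples, whereas tissue and TFCO samples overlap for Tgfb1, Tgfb2, Tgfbr2, Id1 and Smad7.

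Tgfbi (Ensembl ENSMUSG00000035493) lies on the forward strand of chr13:56609523-56639562 in GRCm38, and no other annotated gene overlaps it. The stretch of 187 bases before its first annotated exon, chr13:56609336-56609522 on the forward strand, is shown because Tgfbi is the member that set TFCOs apart. It is taken from RefSeq promoter windows of the same build, in which 7 of the 10 members had an entry. Capitals mark the SMAD box CAGAC on either strand (read here as GTCTG) and the GC-rich SMAD element GGCGCC.
Tgfbi: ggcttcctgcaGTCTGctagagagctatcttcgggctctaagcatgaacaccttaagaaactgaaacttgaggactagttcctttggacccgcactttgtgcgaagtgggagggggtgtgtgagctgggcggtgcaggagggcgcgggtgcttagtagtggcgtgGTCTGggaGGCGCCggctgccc
The stretch held 2 SMAD boxes, a motif found in 34.2% of 32851 promoter windows cut to the same length, and 1 GGCGCC, found in 6.49% of them. It held no match to TGACTCA (the AP-1 site, in 3.29% of windows) or TATAAA (the TATA box, in 8.62%), both searched on either strand, and the 3 matches did not overlap. A match describes letters and is no measurement of binding.

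Levels of the ligands were low in TFC-like cells of every group. Tgfb1, the main TGFβ isoform of immune and endothelial cells, had levels of 0.156 and 0.0709 UMIs per 10000 in the tissue samples, 0.0930, 0.102 and 0.0789 in the late samples and 0.141 and 0.115 in the early samples. These values overlapped, and the log2 difference between TFCO and tissue was -0.005 ± 0.075 (SE, adjusted p = 0.973, limma). Tgfb2, which acts in development and in stromal tissue, was represented by 4 UMIs in tissue TFC-like cells, all of them in sample 2, and by 48 in TFCOs. The absence of Tgfb2 UMIs in tissue sample 1 allows a level of up to 0.235 UMIs per 10000 (3 UMIs of the total), above all 5 TFCO levels of 0.0139 to 0.0737, so no difference was detectable at this depth.

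None of the 3 receptors passed the test between TFCO and tissue. Tgfbr1 had 0.391 and 0.249 UMIs per 10000 in the tissue samples, 0.544, 0.437 and 0.457 in the late and 0.529 and 0.556 in the early samples. The TFCO values all exceeded the tissue values, as for 35.8% of all genes tested. The log2 difference of Tgfbr1 was 0.20 ± 0.14 (SE, adjusted p = 0.386, limma), or 0.27 without tissue sample 1. Tgfbr2 had 0.0578 and 0.353 in tissue and 0.227 to 0.415 in TFCOs, which overlapped (log2 difference 0.13 ± 0.15, adjusted p = 0.577, limma). Without tissue sample 1 the Tgfbr2 difference was -0.04, and without tissue sample 2 it was 0.31, so its sign rested on single tissue samples. Tgfbr3 had 0.763 and 0.904 in tissue and 0.484 to 0.666 in TFCOs. The TFCO values all lay under the tissue values, as for 9.91% of all genes tested. The log2 difference was -0.23 ± 0.17 (adjusted p = 0.388, limma). In cells thinned as for Tgfbi, the shares with a Tgfbr3 UMI overlapped, at 4.92% to 6.48% in TFCOs and 4.17% and 6.67% in tissue. Thinned shares of Tgfbr1 overlapped too, at 3.94% to 6.83% in TFCOs and 6.25% and 2.22% in tissue.

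The 3 Id genes differed in sign, and none of them passed between TFCO and tissue. Id2, which also takes part in immune cell development, had levels of 0.386 and 0.753 UMIs per 10000 in the tissue samples, 1.79, 1.40 and 1.34 in the late samples and 1.32 and 0.885 in the early samples. The groups did not overlap, as for the 35.8% of all genes with every TFCO sample above tissue, with a TFCO mean of 1.35 ± 0.32 (SD, n = 5) against a tissue mean of 0.569 ± 0.260 (SD, n = 2). The log2 difference of Id2 was 0.55 ± 0.23 (SE, adjusted p = 0.144, limma). Thinned to 1000 UMIs, 8.19% to 14.1% of TFCO cells and 2.08% and 2.22% of tissue TFC-like cells had an Id2 UMI.

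Id3 lay on the other side. Its level was 1.10 and 0.811 UMIs per 10000 in the tissue samples, 0.636, 0.449 and 0.791 in the late samples and 0.320 and 0.539 in the early samples. The levels did not overlap, as for the 9.91% of all genes with every TFCO sample below tissue. Late sample 3 was close to tissue sample 2. The shares of cells with an Id3 UMI did overlap. Thinned as for Id2, they were 3.94% to 5.88% in TFCOs and 8.33% and 4.44% in tissue TFC-like cells. Unthinned, they were 22.2% to 35.7% in TFCOs and 22.9% and 15.6% in tissue. The log2 difference of Id3 was -0.36 ± 0.20 (SE, adjusted p = 0.244, limma). It was -0.78 with UMIs summed over cells (adjusted p = 0.168), -0.61 when that sum left out the 2 deepest cells of tissue sample 2 (adjusted p = 0.112) and -0.67 in cells of at least 2000 UMIs (adjusted p = 0.122), and the summed Id3 level of tissue sample 2 was 2.31 UMIs per 10000. Endothelial-like cells had 3.65 and 4.09 Id3 UMIs per 10000, so that the level in tissue TFC-like cells was 30.0% and 19.9% of theirs, beside the 9.36% and 10.8% of the endothelial markers. The part of endothelial RNA in the Id3 difference was not tested. With equal weights for tissue and TFCO samples Id2 and Id3 both passed (adjusted p = 0.0190 and 0.0480, limma). That fit called 4153 of 12118 genes. Without tissue sample 2, which leaves tissue with no replicate, the difference was 0.72 for Id2 and -0.46 for Id3. In the 9 tissue cells with no endothelial UMI the difference changed sign for both, to -0.21 for Id2 and 0.60 for Id3 (adjusted p = 0.792 and 0.324, limma). These cells held only 12247 UMIs in tissue sample 1 and 4303 in sample 2. That is too few to measure genes at these levels, so no conclusion is drawn from the signs.

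For Id1 the levels were 0.233 and 0.698 UMIs per 10000 in the tissue samples, 0.936, 0.460 and 1.21 in the late samples and 0.417 and 0.622 in the early samples. The groups overlapped, since 3 of 5 TFCO samples were below tissue sample 2, and the log2 difference was 0.21 ± 0.26 (SE, adjusted p = 0.626, limma) and -0.02 without tissue sample 1. Smad7 had 0.217 and 0.0913 in tissue and 0.0795 to 0.180 in TFCOs, also overlapping, with a log2 difference of -0.05 ± 0.09 (adjusted p = 0.757, limma). The tissue levels of Smad7 rested on 2 and 8 UMIs.

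**Figure D2:**
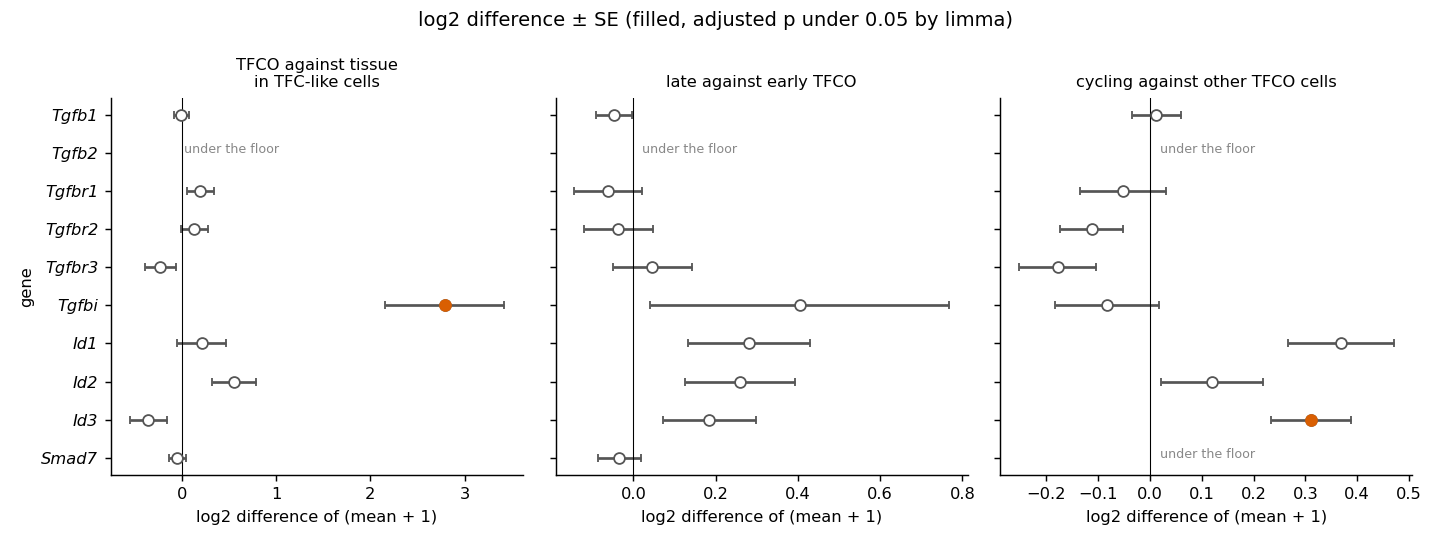
Difference in log2(level + 1) of each member (x axis, with its own scale per panel) with its SE, for TFCO minus tissue, late minus early TFCO, and cycling minus other TFCO cells; filled points have an adjusted p under 0.05. Tgfbi at 2.79 in the first panel and Id3 at 0.31 in the third are filled.

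Other genes of the pathway were taken from a list of 87, of which 61 reached the floor. In TFCOs 3 of them were higher and 3 lower than in tissue TFC-like cells, 6 of 61 in all beside 5.82% of all genes tested, with a median log2 difference of 0.13 beside 0.11 for all genes tested. The 7 SMAD proteins were all tested, and Smad3, the SMAD that carries TGFβ signals, rose from 0.224 and 0.146 UMIs per 10000 in tissue to 0.891 to 1.39 in TFCOs (log2 difference 0.86 ± 0.19, adjusted p = 0.0267, limma). Of 14 intracellular modulators tested, Ppm1a, a phosphatase that acts on phosphorylated Smad2 and Smad3, rose from 0.163 and 0.492 to 1.05 to 1.39 (0.75 ± 0.20, adjusted p = 0.0489). Of 9 other response genes tested, Hey1, a transcriptional repressor that answers to Notch and BMP, rose. It was represented by 2 UMIs in tissue TFC-like cells and 690 in TFCOs, with levels of 0 and 0.00294 UMIs per 10000 against 0.371 to 0.514 (0.52 ± 0.12, adjusted p = 0.0287). The absence of Hey1 UMIs in tissue sample 1 allows up to 0.235 UMIs per 10000, which is below every TFCO sample.

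The genes that fell were 1 of 8 ligands and 2 of 9 receptors tested. Bmp2, a BMP ligand, had 0.600 and 0.440 UMIs per 10000 in the tissue samples and 0.00186 to 0.0607 in TFCOs (log2 difference -0.58 ± 0.09, adjusted p = 0.00285, limma). Its level in endothelial-like cells was 0.0546 and 0.00516, lower than in tissue TFC-like cells. Acvrl1 and Eng, the type I receptor ALK1 and its co-receptor endoglin, are known for their role in endothelium. Acvrl1 fell from 0.256 and 0.350 to between 0 and 0.0142 (-0.37 ± 0.07, adjusted p = 0.0106), and Eng from 0.192 and 1.18 to between 0.0350 and 0.127 (-0.59 ± 0.16, adjusted p = 0.0471). Endothelial-like cells had 2.07 and 2.89 Acvrl1 UMIs per 10000 and 8.26 and 7.30 of Eng. Both genes fell together with the endothelial markers, and the part of endothelial RNA in their fall was not tested. None of 14 extracellular modulators passed. Ccn2, a matricellular response gene of TGFβ and of YAP, was added to the named genes after its values were seen, with 1.38 and 2.47 UMIs per 10000 in tissue and 6.07 to 14.4 in TFCOs (1.84 ± 0.56, adjusted p = 0.0703, limma), and cells of the same barcode correlated by 0.0581 in Ccn2. Pmepa1, a TGFβ-induced inhibitor of the pathway that was also added then, had 1.41 and 1.66 in tissue and 0.257 to 0.865 in TFCOs (-0.71 ± 0.23, adjusted p = 0.0831).

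No member passed limma's test between late and early TFCOs, where 0.00825% of all genes tested passed (1 gene), and 0 of the 9 members tested had an unadjusted p under 0.05 beside 2303 of all genes. Id2 had separate ranges by a narrow gap, 1.34 to 1.79 UMIs per 10000 in the 3 late samples against 0.885 and 1.32 in the early ones (log2 difference 0.26 ± 0.13, adjusted p = 0.304, limma). Tgfb1 and Tgfb2 also had separate ranges, both higher in the early samples, and over all genes 39.1% had separate ranges. Id1 had a log2 difference of 0.28 ± 0.15 (adjusted p = 0.317), Id3 of 0.18 ± 0.11 (adjusted p = 0.384) and Tgfbi of 0.40 ± 0.36 (adjusted p = 0.559). For Tgfbi this leaves an interval from -0.31 to 1.12, and without early sample 2 the difference was -0.30. The 3 receptors and Smad7 had log2 differences of -0.06 to 0.05. Of the 61 other pathway genes none passed, and 4 had an unadjusted p under 0.05, in the same limma fit.

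Within TFCOs, cycling cells were set against the other TFC-like cells of the same sample. Cells with at least 3 of 10 proliferation markers at 1 UMI or more were called cycling, without thinning, so the call itself favours deeper cells. These were 18, 100 and 34 cells in the late samples and 77 and 22 in the early ones. Of all 12141 genes tested, 3.1% passed, 2.46% as higher and 0.634% as lower in cycling cells. Of the 8 members tested 1 passed, Id3, which was higher in cycling cells, while Tgfb2 and Smad7 were under the floor. Cycling cells were deeper than the others in all 5 samples, with medians of 9283 to 18668 UMIs against 5171 to 12556, and the part of depth in these differences was not tested beyond the scaling of each cell to 10000 UMIs.

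Id3 was higher in cycling cells of 5 of 5 samples, as were 8.99% of all genes tested. The Id3 level in cycling and other cells was 0.944 and 0.617 UMIs per 10000 in late sample 1, 0.593 and 0.386 in late sample 2, and 1.37 and 0.694 in late sample 3. It was 0.435 and 0.250 in early sample 1 and 0.983 and 0.503 in early sample 2. The samples kept much of their order in both states, and the log2 difference within samples was 0.31 ± 0.08 (SE, adjusted p = 0.0379, limma with the sample as a block). The call was lost when any 1 of the 5 samples was left out (adjusted p = 0.0696 to 0.153), while the difference stayed at 0.27 to 0.34. Without the block of samples it was the same 0.31 with an adjusted p of 0.457, and with at least 5 markers asked of a cycling cell it was 0.31 with an adjusted p of 0.187.

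Id1 was higher in cycling cells of 4 of 5 samples and missed the threshold. Cycling cells had 0.864, 0.631 and 2.25 Id1 UMIs per 10000 in the late samples and 0.620 and 1.46 in the early ones, and the other cells had 0.940, 0.384 and 1.04 and then 0.293 and 0.553. Late sample 1, with 18 cycling cells, was the exception, and the log2 difference was 0.37 ± 0.10 (SE, adjusted p = 0.0679, limma), or 0.47 with an adjusted p of 0.0168 without that sample. Id2 had a log2 difference of 0.12 ± 0.10 (adjusted p = 0.624) and was higher in 3 of 5 samples.

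The receptors and Tgfbi did not pass in this comparison. Tgfbr3 was lower in cycling cells of 5 of 5 samples, as were 6.33% of all genes tested, with 0.416 ± 0.089 against 0.601 ± 0.071 UMIs per 10000 (SD, n = 5; log2 difference -0.18 ± 0.07, adjusted p = 0.268, limma). Tgfbr2 was also lower in 5 of 5 samples (-0.11 ± 0.06, adjusted p = 0.421), and Tgfbr1 in 3 of 5 (-0.05 ± 0.08, adjusted p = 0.832). Tgfbi was high in both states, 9.03 ± 3.83 in cycling and 9.79 ± 4.66 in other cells (SD, n = 5; -0.08 ± 0.10, adjusted p = 0.764), and lower in cycling cells of 4 of 5 samples. Tgfb1 had a log2 difference of 0.01 ± 0.05 (adjusted p = 0.941).

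**Figure D3:**
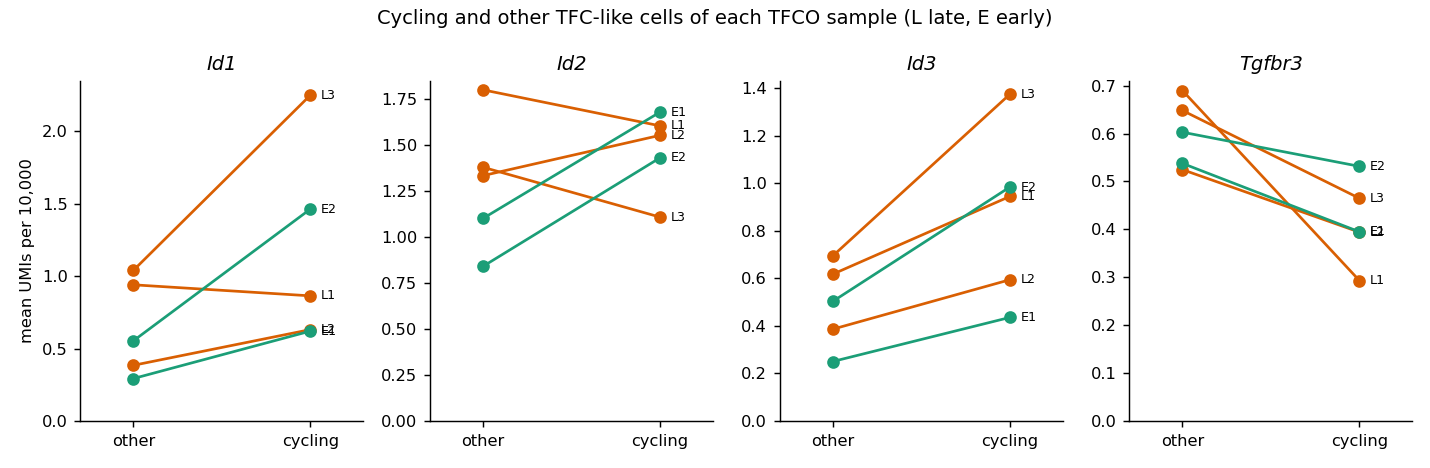
Mean level (y axis, UMIs per 10,000) of Id1, Id2, Id3 and Tgfbr3 in cycling and other TFC-like cells (x axis) of each TFCO sample, joined by a line (L late, E early). All 5 lines rise for Id3 and all 5 fall for Tgfbr3, 4 of 5 rise for Id1 and 3 of 5 for Id2.

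Of the other pathway genes, 55 were tested in cycling cells, 2 passed as higher and 2 as lower, beside 2.46% and 0.634% of all genes tested. Ccn2 fell from 10.5 ± 3.0 to 7.17 ± 4.29 UMIs per 10000 (SD, n = 5; log2 difference -0.60 ± 0.12, adjusted p = 0.0124, limma) and was lower in cycling cells of 5 of 5 samples. Thbs1, a matrix protein that activates latent TGFβ, fell from 0.568 ± 0.348 to 0.221 ± 0.157 (-0.34 ± 0.07, adjusted p = 0.0185). Gdf15, a distant member of the ligand family and a stress-induced p53 target, rose from 0.511 ± 0.130 to 1.21 ± 0.53 (0.52 ± 0.10, adjusted p = 0.0113), and Cdkn1a, the cell cycle inhibitor p21, from 0.305 ± 0.126 to 0.663 ± 0.284 (0.34 ± 0.07, adjusted p = 0.0191). Gdf15 and Cdkn1a were higher in 5 of 5 samples.

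Id1 and Id3 varied together from cell to cell. Pearson's r of their log levels within a sample was 0.159, 0.415 and 0.277 in the late samples and 0.363 and 0.326 in the early ones, over 203 to 327 TFC-like cells of each sample. The median r over samples was 0.153 for Id2 with Id3 and 0.140 for Id1 with Id2, and the highest median of any other pair of members was 0.103 (Tgfbr3 with Tgfbi). These are descriptions over cells of 1 library that share its depth, and the counts are sparse.

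Across the cell classes of tissue, the members had different patterns. They are given as descriptions, since the classes came from clustering, and they rest on 2 samples per class with 235 endothelial-like cells, 57 in the mural-like class, 57 in the immune-like class and 22 in the stromal-like class. Members and pathway genes were left out of the clustering. Tgfb1 was highest in immune-like (1.17 ± 0.20 UMIs per 10000, SD, n = 2) and endothelial-like cells (0.956 ± 0.175), which did not differ beyond their spread, and Tgfb2 in stromal-like cells (1.12 ± 0.78). Ligand levels in TFC-like cells and TFCOs were at the lower end, with 0.128 or less for Tgfb1.

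Receptors followed different classes. Tgfbr1 was at 8.17 and 6.96 UMIs per 10000 in immune-like cells and at 0.867 ± 0.446 (SD, n = 2) in stromal-like cells, the next class. Below it came TFCOs and the endothelial-like, mural-like and tissue TFC-like classes at mean Tgfbr1 levels of 0.320 to 0.543, and from stromal-like cells downwards no class was apart from its neighbour. Tgfbr2 was highest in immune-like cells (2.59 ± 0.06), followed by endothelial-like (1.57 ± 0.40) and mural-like cells (1.33 ± 0.25), which overlapped. Stromal-like cells had 1.94 in tissue sample 1 and 0 in the 7 cells of sample 2. The mean of Tgfbr2 was lowest in tissue TFC-like cells (0.206 ± 0.209), whose values overlapped those of late and early TFCOs. Tgfbr3 was highest in stromal-like (4.31 ± 1.55) and then mural-like cells (2.02 ± 0.04), and lowest in immune-like cells (0.305 ± 0.023).

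Response genes did not share an order. Tgfbi was highest in TFCOs, with 10.4 ± 4.2 in late (SD, n = 3) and 8.22 ± 5.88 in early samples (SD, n = 2), which overlapped, and the early range reached that of stromal-like cells (3.66 and 4.96). Immune-like (2.53 and 2.99) and mural-like cells (1.24 and 1.09) followed, and tissue TFC-like and endothelial-like cells were lowest, each apart from the next class in order. Id1 was highest in endothelial-like cells (1.92 ± 0.05, SD, n = 2) and Id3 in mural-like (4.05 ± 0.29) and endothelial-like cells (3.87 ± 0.31), which overlapped. Id2 was highest in late TFCOs (1.51 ± 0.24, SD, n = 3), immune-like cells (1.34 ± 0.17) and early TFCOs (1.10 ± 0.31), neighbours in this order that overlapped, and 0.569 or less in every other class. Smad7 was highest in endothelial-like cells (0.659 ± 0.051), followed by immune-like cells (0.366 ± 0.081), and in the other classes its level was 0.0844 to 0.154.

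**Figure D4:**
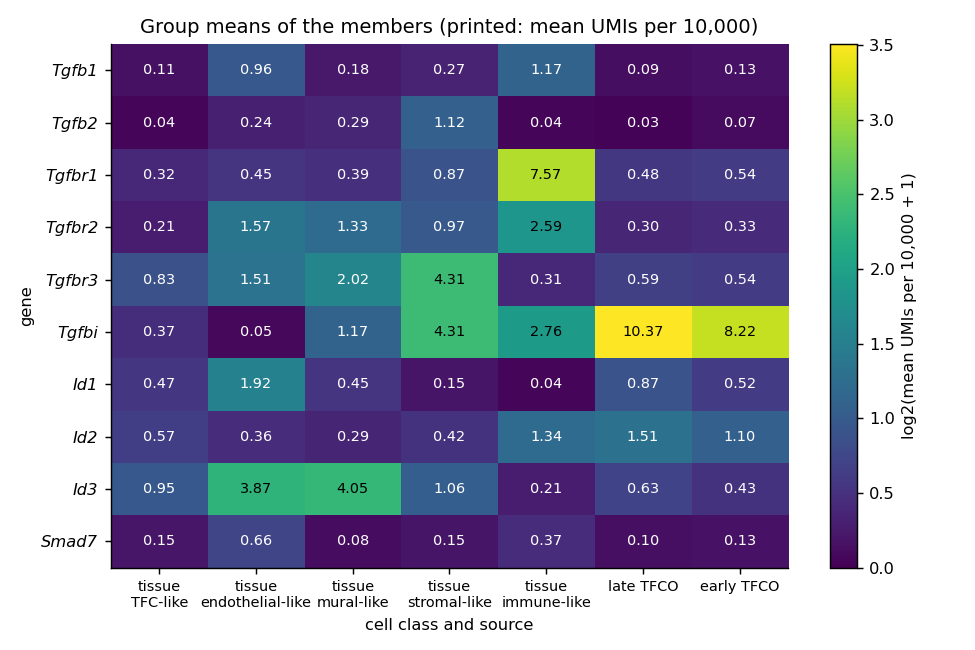
Group means of the 10 members (rows) over 5 tissue cell classes and late and early TFCOs (columns), with the mean level in UMIs per 10,000 printed and log2(level + 1) as colour. The 3 brightest cells are Tgfbi in late (10.4) and early TFCOs (8.22) and Tgfbr1 in immune-like cells (7.57).

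**Figure D5:**
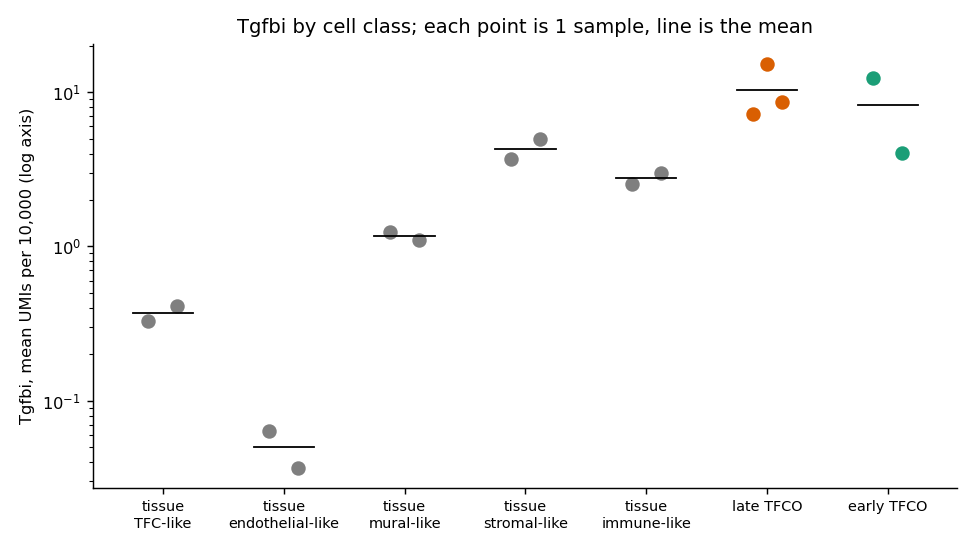
Tgfbi level in UMIs per 10,000 (y axis, log scale) of each sample (points) in 5 tissue cell classes and in late and early TFCOs (x axis), with the mean as a line. The values run from 0.0369 in endothelial-like cells to 15.2 in late sample 2, and tissue TFC-like cells lie at 0.327 and 0.411.

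Genes with the most similar pattern were sought over 15 points, the 5 classes in each tissue sample and the 5 TFCO samples, among 10859 genes. By Pearson's r of log2(level + 1), Tgfbi was most like Cd55 (0.919). The pattern of Tgfbr1 was most like Ptprc (0.986), Lat2 (0.985) and Runx1 (0.979), and that of Id3 most like Dph1 (0.967), Epas1 (0.956) and Ehd2 (0.941). Id1 was most like Plscr1 (0.914), Aqp1 (0.910) and Chst2 (0.906), and Id2 most like Ttc9c (0.929), Ccng2 (0.927) and Krcc1 (0.922). Tgfb1 was most like Rnf213 (0.964), Tgfb2 like n-R5-8s1 (0.975), Tgfbr2 like Adam19 (0.975), Tgfbr3 like D3Ertd751e (0.959) and Smad7 like BC028528 (0.944). Points of 1 sample share its library and depth. The highest point of Tgfb2, 1.67 UMIs per 10000 in stromal-like cells of tissue sample 2, rested on 4 UMIs in 7 cells.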

How the data were processed

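SORT-seq data of 2590 cells from 7 samples were used. The authors deposited 1 table of expression on a natural log scale, in which each cell's UMIs had been brought to 10000 and 1 added before the log. The submitters' processing notes name Trim Galore 0.4.3, STAR 2.5.3a, Seurat and GRCm38 (mm10); the filter on cells, the annotation and the use of strand in counting are not given in the sources used here. The deposited list of 384 barcodes served to test whether levels follow the well barcode, and 4194 of 19498 genes with a correlation above 0.05 were left out of clustering. The log was undone and each cell divided by its smallest value, which gave whole numbers for 100% of values within 0.01, taken as UMIs. The cells held 1406925 to 4703472 UMIs per sample.

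The members, gene lists and rules were chosen with earlier results of these data known. Cells of at least 1000 UMIs were clustered with scanpy 1.11.5 (Leiden, igraph 0.11.9), tissue and TFCO separately, and clusters were named from marker lists. The reference for leading genes of TFCO clusters was changed after a first version had left clusters unnamed. In tissue, 99 cells led by haemoglobin genes stayed unnamed, and 12 TFC-like cells with more markers of C cells, parathyroid or red cells were set aside; in TFCOs these were 75 shallow cells and 16. No doublets were called, since cells were sorted singly. Means per sample were tested on log2(mean + 1) by limma 3.58.1 (R 4.3.3; empirical Bayes with a trend, estimated weights that differ between tissue and TFCO samples, a floor of 0.1 on the mean over groups, Benjamini-Hochberg adjustment); cycling cells were compared with the sample as a block, since both means come from the same sample. On simulated data the fit for TFCO against tissue recovered 9% of genes changed 2-fold and 84% of those changed 4-fold. It called 0.059% of unchanged genes. For cycling cells these were 68%, 100% and 0.0337%. The recovered shares are over 200 changed genes and were not split by level. They therefore do not give the power for members at low levels. The simulation drew counts per sample and not per cell, with a fixed spread that was not estimated from these data. Its shares therefore do not give the power or the rate of false calls of the real comparisons. All 10 members are named in each comparison, and of the pathway list up to 8 genes past the threshold with the largest differences. Alternatives were another scaling, filter, pseudocount, depth limit, set of cells, weighting and each sample left out. In the ends of the members' transcripts, only Tgfbi shared any 50-base word with other genes, 1 of 1916. Tgfbr3 and Tgfb2 overlap other genes in GENCODE vM21, so that their reads may be shared. Overlap was not looked up for Smad7.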

Additional observations from a re-analysis of the deposited data

How the results depend on the processing

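All differences are TFCO minus tissue, late minus early, or cycling minus other cells on the log2 scale, and the cause of a change was not tested. Between TFCO and tissue limma called 705 genes, and in separate fits 213 with UMIs summed over cells, 283 in cells of at least 2000 UMIs, 4153 with equal weights, 365 with every deposited cell, 1185 with a floor of 0.5, 1438 with a term for the pair of deepest TFCO samples, 337 for early TFCOs alone, 0 in tissue cells with no endothelial UMI (1558 at an unadjusted p under 0.05), and 291 to 5320 with 1 sample left out (5268 and 5320 without tissue sample 1 and 2, where the remaining tissue sample takes its spread from the TFCOs, and 291 without early sample 1). Between late and early TFCOs, 1 gene was called, 2 with every TFCO cell, 536 with that term, 4 with a pseudocount of 0.1, and 1 to 1022 with 1 sample left out (1022 without early sample 1, 3 without late sample 2 and 2 without early sample 2). In cycling cells 376 genes were called, 567 with summed UMIs, 59 with no filter, and 212 to 352 with 1 sample left out (212 without late sample 3 and 226 without early sample 1, and 245 and 246 without late samples 1 and 2). Without the replicate block, 139 were called. No paired analysis was possible because the replicate numbers of tissue, late and early samples only name them.

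Tgfbi kept its call between TFCO and tissue under 20 of 22 alternatives. These include the fits without tissue sample 1 or 2 and the fit with the term for the pair of deepest TFCO samples. Id1 passed in cycling cells with summed UMIs (adjusted p = 0.0367), in cells of at least 2000 UMIs (0.0295) and with a pseudocount of 0.1 (0.0410), all by limma, and Id3 lost its call in 10 of 13 alternatives. Signs turned as follows between TFCO and tissue. Tgfb1 was 0.00126 in cells that are not cycling, 0.00528 with every TFCO cell, 0.0189 for early TFCOs alone, and -0.0601 to 0.00363 with 1 sample left out. Smad7 was 0.00856 with summed UMIs less the 2 deepest cells of tissue sample 2. In tissue cells with no endothelial UMI, Id2 was -0.206 and Id3 0.603. With 1 sample left out, Tgfbr2 ran from -0.0443 to 0.311, Id1 from -0.0229 to 0.439 and Smad7 from -0.126 to 0.0313. Between late and early TFCOs such ranges were -0.127 to 0.0538 for Tgfbr2, -0.00754 to 0.0992 for Tgfbr3, -0.297 to 1.11 for Tgfbi and -0.0985 to 0.0297 for Smad7. In cycling cells they were -0.00649 to 0.0496 for Tgfb1 and -0.112 to 0.00646 for Tgfbr1, and Tgfb1 was -0.00695 with samples centred on the median gene and Tgfbr1 0.114 with at least 5 markers. Of 100 levels by cell class under 2 other clusterings, 93 stayed within 1 SD. The 7 that moved were all levels of endothelial-like cells. Tissue TFC-like, mural-like and immune-like cells numbered the same 93, 57 and 57 in each clustering, with unchanged levels. For these classes the check could not show a shift. The alternatives with every TFCO cell and without the 2 deepest cells were chosen after seeing the data. Depth limits Tgfb1, Tgfb2, Smad7 and Tgfbi in tissue, which rest on 13, 4, 10 and 14 UMIs.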
